A study of Homo sapiens with 6 samples.

Results

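The genes described here are TAGLN, TAGLN2, ACTA2, CNN1, CNN2, MYL9, TPM1, TPM2 and VCL, whose proteins build or attach to actin filaments, and SRF, the transcription factor known to drive many contractile genes. They were selected by gene symbol, with their difference between PELP1-KD and control cells already known from these same counts. Their fold changes are therefore a description and carry no test. The lists of related genes further below were also chosen with earlier results known, so their counts of rises and falls are a description too. All 10 symbols were found among the 23228 genes listed in the count tables, and all 10 were among the 12796 genes with enough reads to be tested.

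Expression was measured by RNA-seq in MDA-MB-231, a human cell line derived from a triple-negative breast cancer (TNBC). The 3 control libraries came from cells that stably express a non-targeting shRNA, and the 3 PELP1-KD libraries from cells that stably express an shRNA against PELP1, a scaffolding coregulator of nuclear receptors. Both shRNAs were delivered by lentivirus with puromycin selection, both groups grew in RPMI medium with 10% fetal bovine serum, and PELP1-KD rests on a single shRNA sequence. The labels do not say that the replicates of a group were separate cultures or selections, and the p-values given for other genes then measure the spread between these libraries alone.

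Contractile force in smooth muscle comes from myosin sliding on actin filaments that carry tropomyosin, calponin and transgelin, and vinculin ties those filaments to the membrane at sites of adhesion. Many of these genes are bound by SRF at a short DNA element, the CArG box, named for its order of C, A or T, and G. SRF works with 2 competing families of partners. One holds the myocardin-related factors MKL1 and MKL2, which free actin monomers hold back, and, in muscle, myocardin. The other holds the ternary complex factors (ELK1, ELK3 and ELK4), which respond to growth factor signaling. The same genes are also active at lower levels in fibroblasts and in many cultured tumor cells. TAGLN2 and CNN2 are the forms of transgelin and calponin that are not restricted to muscle.

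The CArG box was searched for in the RefSeq promoter windows, each with 250 bases before and 50 bases after a transcription start (GRCh38.p14), and the sequences below show where it lies near the start of SRF itself, CNN2 and ACTA2. Windows matched 8 of the 10 genes, all but TAGLN and MYL9, and numbered 13 in all. An exact CArG box stood in the window at the first start of SRF, at bases -30 to -21 and -10 to -1 counted from the first transcribed base as 0, and in the window of CNN2, at bases -89 to -80. Capitals mark an exact box in the SRF sequence (chr6:43171219-43171268, plus strand) and in the CNN2 sequence (chr19:1026499-1026548, plus strand). In ACTA2 (chr10:88952815-88952914, minus strand), capitals mark boxes with 1 mismatch, at bases -121 to -112 and -71 to -62 from its second start.
SRF: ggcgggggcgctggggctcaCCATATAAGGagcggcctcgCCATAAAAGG
CNN2: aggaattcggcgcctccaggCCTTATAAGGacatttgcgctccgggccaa
ACTA2: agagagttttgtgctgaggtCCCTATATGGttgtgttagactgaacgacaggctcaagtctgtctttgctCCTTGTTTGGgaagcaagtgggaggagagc

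**Figure D1:**
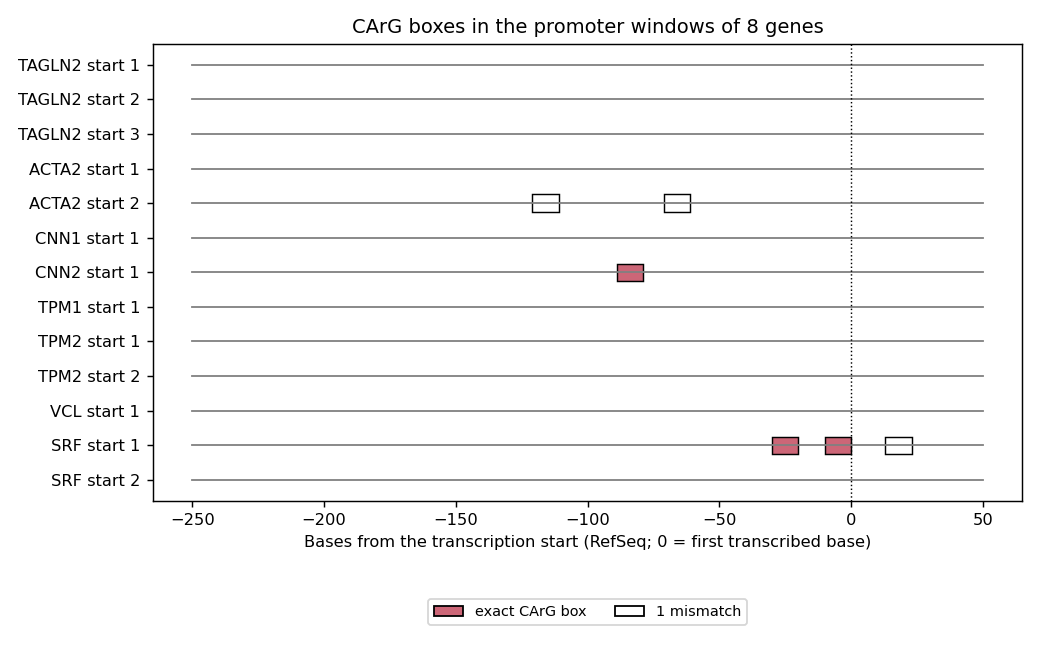
Position of CArG boxes in the 13 RefSeq promoter windows of 8 genes, in bases from the transcription start; filled boxes are exact and open boxes have 1 mismatch. Exact boxes lie in 1 window of SRF and in the window of CNN2, and boxes with 1 mismatch in a window of ACTA2 and further into the SRF window.

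Among all 35116 RefSeq windows, 454 (1.29%) held an exact CArG box and 6624 (18.9%) held a box with at most 1 mismatch, on either strand. SRF also held a box with 1 mismatch at bases 13 to 22. In the windows of TAGLN2, CNN1, TPM1, TPM2 and VCL no box was found at up to 1 mismatch, which says only that these letters are not within those 300 bases. No binding of SRF was measured in this experiment.

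Reads on genes came to between 17304864 and 23132102 per library, and between 32.5% and 32.9% of each library's alignments were not unique and were counted on no gene. Levels are given in CPM, reads scaled to library size by the TMM method, where 3 reads, taken as the floor of detection, correspond to 0.127 to 0.177 CPM. Intervals and floors cover counting error only. The intervals take reads as independent molecules, which they are not, and leave out the spread between libraries. PELP1 stood at 57.8 ± 2.14 (SD, n = 3) CPM in control and at 29.6 ± 0.876 (SD, n = 3) CPM in PELP1-KD cells, a ratio of 0.511, with no overlap between groups. Control replicate 1 stood apart from the other control libraries, as chi-square over its degrees of freedom was 3.37 and 3.57 against them and 1.41 between those. PELP1-KD replicate 2 stood apart less far in its group, at 2.43 and 2.41 against 1.44, and the calls of the 10 genes were the same without either library. With library totals in place of TMM, 3817 genes were higher and 2418 lower in PELP1-KD cells, where TMM gave 2904 and 3103.

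In control cells the 10 genes spanned a wide range of levels per length of exon. TAGLN2, the widely expressed transgelin, was highest at 162 RPKM ± 3.63 (SD, n = 3), where RPKM is CPM per kilobase of merged exons. CNN2 followed at 92.5 RPKM, then MYL9 at 52.0, SRF at 39.5, VCL at 35.2, TPM1 at 13.8, TAGLN at 10.8 and TPM2 at 3.80. ACTA2 and CNN1, both regarded as markers of differentiated smooth muscle, were the lowest, at 0.333 RPKM ± 0.0793 (SD, n = 3) and 0.163 RPKM ± 0.0656 (SD, n = 3). The ranges over the control libraries did not overlap between any neighbours in this order. Measured per base of the longest transcript instead, TPM1 moved to place 4 and SRF to place 6.

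In PELP1-KD cells the order changed in its middle and at its lower end. TAGLN moved from place 7 to place 6, at 31.6 RPKM ± 1.08 (SD, n = 3), and its range of 30.4 to 32.3 overlapped that of VCL at 32.1 to 32.9. CNN1, at 2.25 RPKM ± 0.163 (SD, n = 3), stood above ACTA2 at 0.291 RPKM ± 0.0287 (SD, n = 3).

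**Figure D2:**
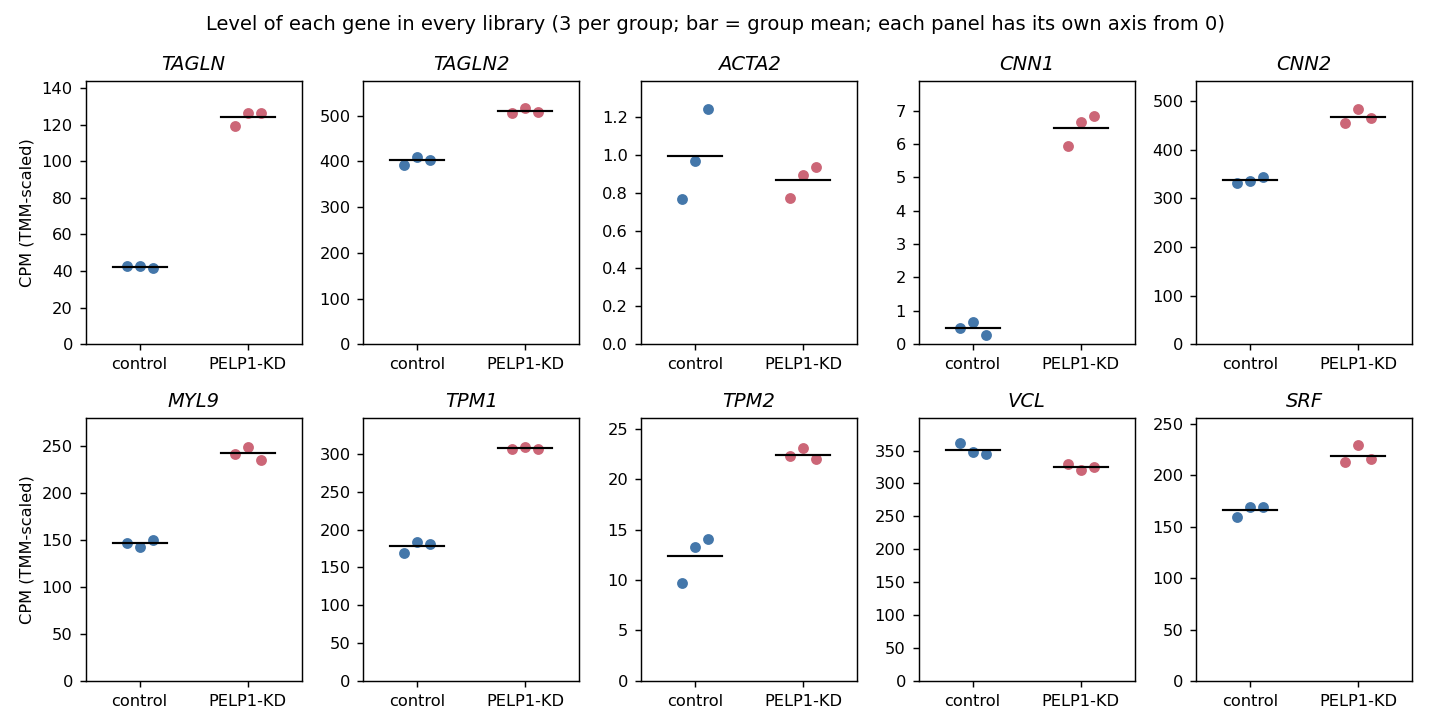
CPM of each of the 10 genes in each library, with points for the 3 control and 3 PELP1-KD libraries and a bar for each group mean; every panel has its own axis from 0. PELP1-KD libraries lie above all control libraries in 8 panels, below them for VCL, and among them for ACTA2.

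SRF, at chr6:43171299-43181507 of the GENCODE annotation on GRCh38, encodes the transcription factor itself and is also known to be among its own targets. Its level was 160, 169 and 169 CPM in the control libraries and 212, 229 and 216 CPM in the PELP1-KD libraries. All PELP1-KD libraries were higher than all control libraries, by a log2FC of 0.40 (SE 0.038), or 1.32 times. In bulk RNA, more cells with a transcript and more of it per cell cannot be told apart, here and for every gene below.

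The transgelins bind and bundle actin filaments. TAGLN (chr11:117199321-117204782), also called SM22α and a common marker of smooth muscle, stood at 42.7, 42.8 and 41.5 CPM in control and at 119, 126 and 126 CPM in PELP1-KD cells. The groups were far apart relative to their spread, with 722 to 973 reads per library in control and 2319 to 2976 in PELP1-KD cells. The log2FC of TAGLN was 1.55 (SE 0.046), or 2.93 times, and lay between 1.53 and 1.60 over the 13 alternative settings. TAGLN2 (chr1:159918107-159925732), its counterpart outside muscle, stood at 393, 411 and 403 CPM against 506, 517 and 509 CPM. It was higher in each PELP1-KD library by a smaller amount, a log2FC of 0.34 (SE 0.029), or 1.27 times.

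The calponins bind actin and restrain the ATPase of myosin. CNN1 (chr19:11538717-11550323), the calponin of differentiated smooth muscle, had 8, 15 and 5 reads in control and 116, 142 and 161 reads in PELP1-KD libraries. That is 0.473, 0.660 and 0.282 CPM against 5.95, 6.66 and 6.84 CPM, so that CNN1 was barely detected in control cells and clearly present, though still low, in PELP1-KD cells. Its log2FC of 3.72 (SE 0.22) was the largest of the 10, and the pooled reads gave a ratio of 13.3 (95% exact interval 9.10 to 20.3). A single control library exceeded the level that the filter on low counts asks for, so CNN1 was tested through its PELP1-KD libraries, and it was left out when 10 counts were required in every library. CNN2 (chr19:1026581-1039068), found in many cell types, stood at 331, 336 and 344 CPM in control and at 455, 484 and 465 CPM in PELP1-KD cells. It was higher in every PELP1-KD library, with a log2FC of 0.47 (SE 0.031), or 1.39 times.

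Tropomyosins run along the actin filament and set the access of myosin to it. TPM1 (chr15:63042632-63071915) stood at 169, 184 and 180 CPM in control and at 306, 309 and 307 CPM in PELP1-KD cells. The PELP1-KD libraries were nearly equal to each other and all above control, with a log2FC of 0.79 (SE 0.035), or 1.73 times. The annotation holds 34 transcripts of TPM1, and counts per gene do not tell its smooth muscle forms from the others. TPM2 (chr9:35681992-35690121), the beta chain, stood at 9.70, 13.3 and 14.1 CPM in control and at 22.3, 23.1 and 22.0 CPM in PELP1-KD cells. Control replicate 1 was the lowest of its group, and the log2FC of 0.85 (SE 0.097) became 0.72 without that library.

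MYL9 (chr20:36541484-36551447) encodes the regulatory light chain of smooth muscle and nonmuscle myosin, whose phosphorylation switches contraction on. It stood at 147, 143 and 150 CPM in control and at 241, 249 and 235 CPM in PELP1-KD cells. Again the groups did not overlap, and the log2FC was 0.72 (SE 0.036), or 1.65 times.

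ACTA2 and VCL did not follow the other genes. ACTA2 (chr10:88935074-88991339), the smooth muscle α-actin, had 13, 22 and 22 reads in control and 15, 19 and 22 reads in PELP1-KD libraries, or 0.769, 0.968 and 1.24 CPM against 0.770, 0.891 and 0.935 CPM. The groups overlapped, the log2FC was -0.19 (SE 0.28), and the pooled ratio was 0.876 (95% exact interval 0.595 to 1.29), so that a change within those bounds was not detectable at this depth. VCL (chr10:73995193-74121363), the adhesion protein vinculin, stood at 362, 349 and 345 CPM in control and at 329, 320 and 325 CPM in PELP1-KD cells. Every PELP1-KD library was lower, but by little, with a log2FC of -0.11 (SE 0.031), or 0.924 times, and its log2FC was -0.07 when library totals replaced TMM.

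**Figure D3:**
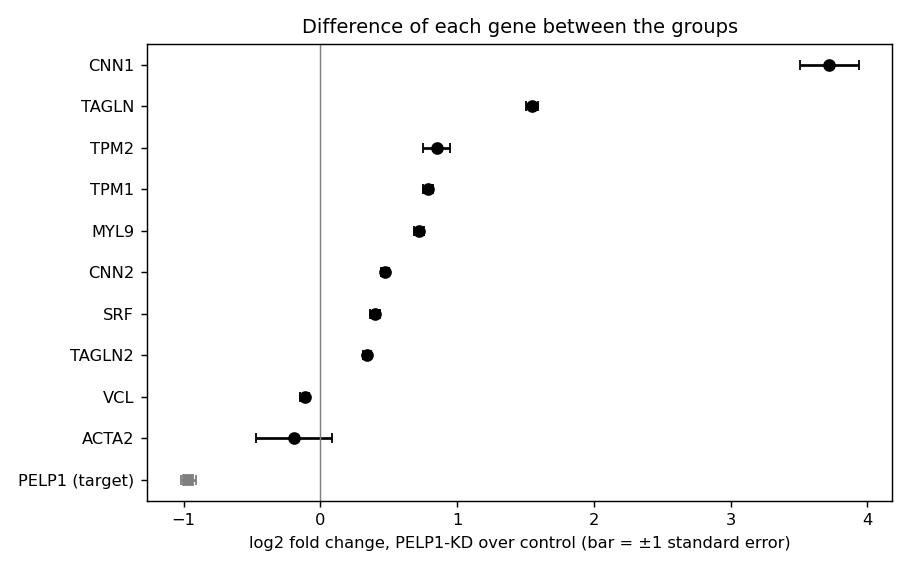
Log2FC between PELP1-KD and control of the 10 genes, ordered by size, with bars of 1 standard error and PELP1 as the knockdown target below them. CNN1 is at 3.72 and TAGLN at 1.55, 6 genes lie between 0.34 and 0.85, and VCL and ACTA2 are at -0.11 and -0.19.

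By edgeR's quasi-likelihood test with an adjusted p below 0.05, 8 of the 10 genes were on the higher side and 1, VCL, on the lower side, against 22.7% and 24.2% of all genes tested. Groups did not overlap in 9 of the 10, against 55.0% of all genes tested. As the genes were picked on this contrast, nothing is read from these counts. VCL left the lower side with library totals, and the calls of the other 9 were unchanged under every alternative that tested them.

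Within their protein families, TAGLN, CNN1, CNN2, TPM1, TPM2 and MYL9 made up a larger share of the RNA in PELP1-KD cells. TAGLN2 made up a smaller share, and ACTA2 did not gain. The size of each share depends on the exon lengths used, here merged exons only. TPM1, for instance, has 12876 merged exon bases and 3957 in its longest transcript. TAGLN made up 6.45%, 6.20% and 6.12% of the RPKM of the transgelins in the control libraries and 13.0%, 13.4% and 13.6% in the PELP1-KD libraries, with TAGLN2 as nearly all of the rest. CNN1 came to 0.0466% ± 0.0190 (SD, n = 3) of the calponins in control and 0.544% ± 0.0365 (SD, n = 3) in PELP1-KD cells. CNN3, the most abundant calponin, went from 73.6% to 68.4%, and CNN2 from 26.3% to 31.1%.

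TPM1 and TPM2 gained within the tropomyosins, where TPM3 lost. TPM1 went from 7.51% ± 0.314 (SD, n = 3) to 12.5% ± 0.0989 (SD, n = 3), and TPM2 from 2.07% to 3.60%. TPM3, a cytoskeletal tropomyosin, went from 32.3% ± 0.991 (SD, n = 3) to 24.1% ± 0.152 (SD, n = 3), and TPM4 made up 58.1% and 59.8%. The sum of the 4 tropomyosins moved from 184 to 192 RPKM only. Of the regulatory light chains, MYL9 went from 12.7% to 17.4% and MYL12B from 67.5% to 62.3%.

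The actin pool was almost wholly ACTB and ACTG1, the cytoplasmic actins, in both groups. ACTA2 was 0.0126% ± 0.00277 (SD, n = 3) of the actin RPKM in control and 0.0105% ± 0.00101 (SD, n = 3) in PELP1-KD cells. ACTB went from 45.8% to 50.3% and ACTG1 from 54.2% to 49.7%.

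**Figure D4:**
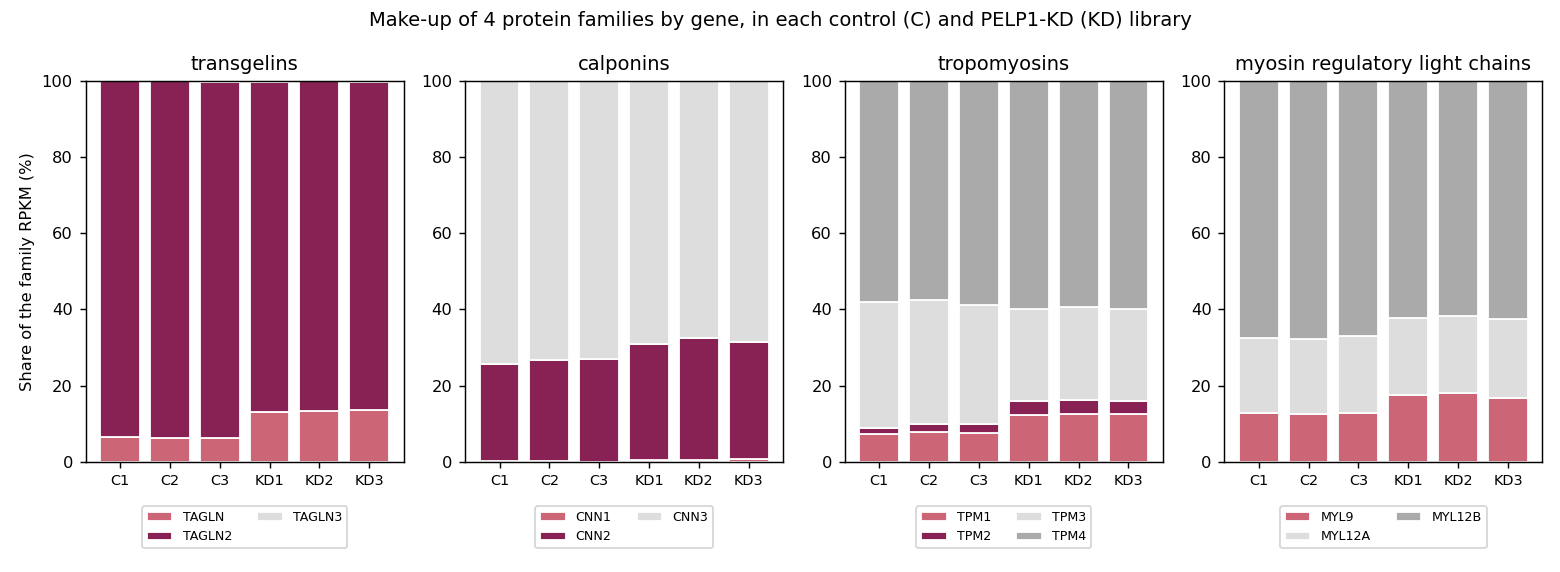
Share of each gene in the summed RPKM of 4 protein families, in percent, for control libraries (C1 to C3) and PELP1-KD libraries (KD1 to KD3). TAGLN, CNN2, TPM1, TPM2 and MYL9 take larger shares in all 3 PELP1-KD libraries, and TAGLN2, TPM3, CNN3 and MYL12B smaller ones.

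Of 13 paralogs of the 10 genes outside the selection, 11 were tested, 6 rose and 2 fell, where 22.7% of all genes tested were higher and 24.2% lower, and the median log2FC was 0.13 where that of all genes tested was 0.0014. ACTG2, the γ-actin of visceral smooth muscle, had 1, 1 and 2 reads in control and 13, 23 and 16 reads in PELP1-KD libraries, a pooled ratio of 11.6 (95% exact interval 4.27 to 44.1). No control library of ACTG2 exceeded the level the filter on low counts asks for, so its call came through its PELP1-KD libraries and its p-value is not given. MYL12A, a nonmuscle regulatory light chain, rose by 0.30 on the log2 scale (SE 0.031, same edgeR test, adjusted p = 1.28e-07), and ACTB by 0.20 (SE 0.026, adjusted p = 2.48e-06). MYL12B, CNN3 and TPM4 rose by 0.15, 0.13 and 0.10.

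TPM3 fell by 0.36 on the log2 scale (SE 0.030, edgeR's quasi-likelihood test, adjusted p = 3.82e-09). ACTG1 fell by 0.06 (adjusted p = 0.018), a call lost with library totals, at a log2FC of -0.01, and without control replicate 2, control replicate 3, PELP1-KD replicate 1 or PELP1-KD replicate 3. The log2FC was 0.86 (SE 0.42) for TAGLN3, with 3 to 15 reads per library, 0.04 for MYL6B and -0.02 for MYL6, none of which passed the test, although TAGLN3 passed without control replicate 3, at a log2FC of 1.32 (adjusted p = 0.0404). ACTA1 and ACTC1, the actins of skeletal and cardiac muscle, had at most 5 reads in any library and were not tested.

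Of 10 known SRF cofactors and their regulators, 8 were tested, 1 rose and 3 fell (22.7% and 24.2% of all genes tested), with a median log2FC of -0.03. MKL1, the myocardin-related factor released when actin polymerizes, stood at 25.4 ± 0.220 (SD, n = 3) CPM in control and 30.6 ± 1.96 (SD, n = 3) CPM in PELP1-KD cells, a log2FC of 0.27 (SE 0.065, edgeR's quasi-likelihood test, adjusted p = 0.0018). ELK4, a ternary complex factor, went from 90.4 ± 4.29 (SD, n = 3) CPM to 41.7 ± 2.79 (SD, n = 3) CPM, a log2FC of -1.11 (SE 0.055, adjusted p = 1.47e-12), the largest difference of this list. MICAL2, an enzyme that oxidizes nuclear actin, fell by 0.34 (SE 0.036, adjusted p = 2.08e-07), and FHL2, a LIM-domain partner of SRF, fell by 0.21 (SE 0.047, adjusted p = 0.0011).

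The other cofactors showed no difference past the threshold. MKL2 stood at 19.4 CPM in both groups, ELK1 at 59.5 and 59.4 CPM, ELK3 at 91.0 and 91.8 CPM and SCAI, a repressor of the MKL factors, at 14.0 and 13.5 CPM. MYOCD, the gene of myocardin, had no read in any library, and ABRA, a muscle activator of MKL1, had a single read in all 6.

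Small GTPases and the kinases and actin-binding proteins downstream of them control the pool of free actin and through it the MKL factors. All 24 genes of this list were tested, 8 rose and 6 fell, against 22.7% higher and 24.2% lower among all genes tested, with a median log2FC of 0.03, so that the share of falls was near that of all genes. RHOB and RHOC, small GTPases, rose by 0.70 (SE 0.056, edgeR's quasi-likelihood test, adjusted p = 2.51e-09) and 0.32 (SE 0.033, adjusted p = 1e-07). LIMK1, the kinase that blocks actin severing by cofilin, rose by 0.58 (SE 0.037, adjusted p = 8.33e-11). RHOA fell by 0.14 (SE 0.026, adjusted p = 1.6e-04), the phosphatase subunit PPP1CB by 0.16 (SE 0.040, adjusted p = 0.00217) and TMSB10, which binds free actin, by 0.19 (SE 0.030, adjusted p = 2.54e-05).

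Further targets known for the MKL and SRF pair numbered 18, all tested, of which 11 rose and 4 fell, with a median log2FC of 0.15. Among all genes tested, 22.7% were higher and 24.2% lower, and as the list was chosen with earlier results known, nothing is read from these counts. ANKRD1, a nuclear ankyrin-repeat protein, rose from 892 ± 25.3 (SD, n = 3) CPM to 1784 ± 60.6 (SD, n = 3) CPM, a log2FC of 1.0 (SE 0.029, edgeR's quasi-likelihood test, adjusted p = 2.86e-16). CYR61 and CTGF, secreted matricellular proteins, rose by 0.55 (SE 0.023, adjusted p = 1.27e-13) and 0.52 (SE 0.026, adjusted p = 1.92e-12). ANKRD1, CYR61 and CTGF are also known targets of YAP and TEAD factors. GLIPR1, FHL2, MYH9 and ACTG1 fell, each by 0.21 or less on the log2 scale. With library totals 2 of these 4 falls passed the test, and the same number did without PELP1-KD replicate 3.

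Immediate-early genes driven by SRF with ternary complex factors numbered 9, of which 6 were tested, 2 rose and 3 fell, with 22.7% and 24.2% as the shares of all genes tested and a median log2FC of -0.02. NR4A1, an orphan nuclear receptor, rose by 0.76 (SE 0.13, edgeR's quasi-likelihood test, adjusted p = 4.34e-05), and JUNB by 0.43 (SE 0.084, adjusted p = 2.92e-04). EGR1, a zinc-finger factor, fell by 0.78 (SE 0.14, adjusted p = 8.04e-05), FOS by 0.67 (SE 0.25, adjusted p = 0.0361) and MCL1 by 0.09 (SE 0.030, adjusted p = 0.0228). Without control replicate 1, and likewise without PELP1-KD replicate 2, 1 fall was left in place of 3, as FOS and MCL1 lost their call. FOS also lost it with DESeq2 (adjusted p = 0.182), without control replicate 2 and without PELP1-KD replicate 1, and MCL1 with library totals and without PELP1-KD replicate 3.

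**Figure D5:**
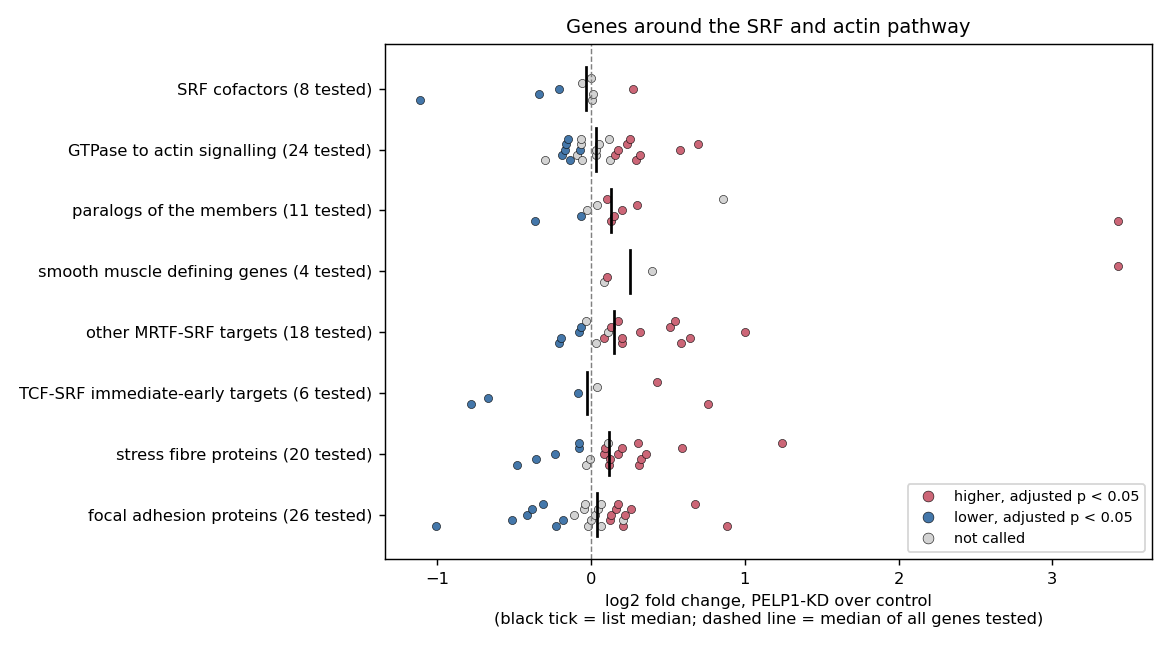
Log2FC between PELP1-KD and control of the tested genes in 8 lists around SRF and actin, colored by the edgeR call, with a tick at each list median and a dashed line at the median of all genes tested. The median is 0.15 for other MKL and SRF targets (MRTF-SRF in the plot) and -0.03 for SRF cofactors, and ACTG2 is at 3.42. Some genes stand in 2 of the lists, ACTG2, ACTB, ACTG1, FHL2 and MYH9 among them, so the lists are not independent of each other.

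Proteins of the stress fibre, the contractile actin bundle of cultured cells, were listed by 22 genes, of which 20 were tested, 12 rose and 5 fell, against 22.7% higher and 24.2% lower among all genes tested. Their median log2FC was 0.11, and the share of falls was near that of all genes. SYNPO, the actin-bundling protein synaptopodin, rose from 15.1 ± 0.405 (SD, n = 3) CPM to 35.7 ± 1.01 (SD, n = 3) CPM, a log2FC of 1.24 (SE 0.066, edgeR's quasi-likelihood test, adjusted p = 4.46e-12). PDLIM1 and PALLD, which bind α-actinin, rose by 0.59 (SE 0.045, adjusted p = 1.3e-09) and 0.33 (SE 0.034, adjusted p = 1.44e-07). TMOD3, which caps actin filaments, fell by 0.48 (SE 0.045, adjusted p = 2.79e-08), and the nonmuscle myosin heavy chains MYH10 and MYH9 fell by 0.23 and 0.08. The falls numbered 2 with library totals, 2 without PELP1-KD replicate 3 and 3 without PELP1-KD replicate 1.

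Focal adhesion genes, the surroundings of vinculin, numbered 27, of which 26 were tested, 9 rose and 7 fell, with a median log2FC of 0.04. Against 22.7% higher and 24.2% lower among all genes tested, the share of falls was near that of all genes. ENAH and VASP, which extend actin filaments, rose by 0.26 (SE 0.043, edgeR's quasi-likelihood test, adjusted p = 3.99e-05) and 0.22 (SE 0.039, adjusted p = 1.1e-04), and the integrin activator FERMT2 by 0.20. PARVA, which links integrins to actin, fell by 0.38 (SE 0.038, adjusted p = 7.57e-08), FERMT1 by 0.42 (SE 0.060, adjusted p = 9.7e-06) and paxillin (PXN) by 0.18.

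Genes that define smooth muscle were mostly absent or near the floor of detection in both groups, so the 10 genes are called contractile and actin-binding genes here and no smooth muscle identity is given to the cells. Of 15 such genes beside the 10 described, 11 were too low to test, and MYOCD, KCNMB1, PLN, ITGA8 and CASQ2 had no read in any library. MYH11, the smooth muscle myosin heavy chain, had a single read in all 6 libraries. SMTN, smoothelin, stood at 95.2 ± 4.63 (SD, n = 3) CPM in control and 102 ± 0.400 (SD, n = 3) CPM in PELP1-KD cells, at the edge of the threshold (log2FC 0.11, edgeR's quasi-likelihood test, adjusted p = 0.0499), and lost its call under 8 of 13 alternatives. ACTG2, given above, was the other gene called, and it was tested through its PELP1-KD libraries alone. SYNM and JPH2 were also tested, and neither was called. SYNM stood at 23.57 CPM in control and 24.98 CPM in PELP1-KD cells (log2FC 0.08, SE 0.067, same edgeR test, adjusted p = 0.323). JPH2 stood at 2.49 and 3.32 CPM (log2FC 0.39, SE 0.19, adjusted p = 0.102). The groups overlapped for both. Among the genes too low to test, DES, desmin, had 0, 1 and 2 reads in control and 3, 5 and 13 in PELP1-KD libraries, a pooled ratio of 6.24 (95% exact interval 1.86 to 32.7). LMOD1, leiomodin, had 1, 0 and 0 reads against 3, 2 and 7, a ratio of 10.7 (1.58 to 457). HSPB6, a small heat shock protein, had 4, 7 and 4 reads against 10, 7 and 8. SYNPO2 had 3, 3 and 2 reads against 1, 3 and 4, and PPP1R14A had 0, 0 and 0 against 0, 0 and 1. Most of these counts lie near the floor of 3 reads per library.

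Markers of other cell types were measured beside these genes. The 7 fibroblast markers summed to between 19.4 and 24.2 CPM in control and between 61.9 and 67.3 CPM in PELP1-KD libraries, which rested on COL1A1 (log2FC 1.61) and PDGFRB (log2FC 1.53), while DCN had no read and COL1A2, COL3A1, LUM and PDGFRA had at most 6 reads per library. Their part in the differences above was not tested. The 4 myoepithelial markers summed to between 2.90 and 4.58 CPM in control and between 2.16 and 2.31 CPM in PELP1-KD cells, nearly all OXTR, with KRT5 at 0.

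Of 5 endothelial markers, KDR fell, TEK had no read, and VWF had 1, 6 and 0 reads in control and 12, 20 and 16 in PELP1-KD libraries, a pooled ratio of 6.11 (95% exact interval 2.75 to 16.0), tested through the PELP1-KD libraries alone. Their sum was 2.65 to 3.48 CPM in control and 2.05 to 2.42 CPM in PELP1-KD cells. The keratins KRT8, KRT18 and KRT19 fell, KRT19 by 0.95 on the log2 scale, and EPCAM stood at 9.46 and 9.57 CPM. VIM, the mesenchymal filament protein vimentin, counted with them as a gene of this cell line, fell from 2221 to 1922 CPM and made up most of the sum of these 5 genes, which was 2748 to 2972 CPM in control and 2471 to 2494 CPM in PELP1-KD cells. ESR1 and PGR, the hormone receptor genes that TNBC lacks, had at most 2 reads in any library, and ERBB2 stood at 113 and 118 CPM.

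Overlap with other genes limits some of these values. On GRCh38, 30.1% of the exon bases of ACTA2 also lie in exons of ACTA2-AS1 or FAS on the opposite strand, as do 21.4% for TPM1 (TPM1-AS and AC079328.2), 11.4% for TAGLN (PCSK7), 11.1% for VCL (AP3M1) and 9.27% for CNN2 (AC011558.1). Whether the counting used strand, and with which annotation, is not given in the sources used here. It is therefore not known whether reads there were counted on these genes, on their partners, or set aside as ambiguous. TAGLN2 shares 5.84% of its 50-base windows with the pseudogene TAGLN2P1. MYL9, TPM2 and SRF had no exon bases in common with another gene and no 50-base window found elsewhere among annotated transcripts.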

How the data were processed

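RNA-seq libraries were stranded, poly(A) selected and sequenced as single reads of 50 bases. The authors deposited raw counts of reads per gene symbol for each library, without normalization or pooling. Their processing notes name TopHat2, SAMtools, HTSeq and hg19. Versions, annotation and strand setting were not given in the sources used here. The study used DESeq2 for its own test.

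From these counts, genes passing filterByExpr (minimum 10) in edgeR 4.0.16 (R 4.3.3) were scaled by TMM and tested by its quasi-likelihood test, 3 against 3 libraries, with Benjamini-Hochberg adjustment over 12796 genes at 0.05. SE is the absolute log2FC over the square root of F. RPKM used exon lengths from GENCODE v29 (GRCh38), and promoter windows came from RefSeq (GRCh38.p14). Ratios of low counts have exact 95% binomial intervals. The edgeR fit was tested on simulated counts with a common dispersion for all genes, and the other steps were not tested in this way.

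The 10 genes and the lists were chosen with earlier results of these data known. Besides the 10, all SRF cofactors and paralogs are named, and from each list up to 3 genes per direction with the lowest p-values and no overlap of groups. Other genes named were chosen after their values were seen. Same-numbered libraries were not paired: deviations from group means correlated at 0.039, 0.065 and -0.078. Alternatives were RLE size factors, library totals, DESeq2 1.42.0, limma 3.58.1 voom, no filter, 10 counts in every library, a replicate block and leaving out each library. A list of leukocyte markers is not reported here.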

Additional observations from a re-analysis of the deposited data

How the results depend on the processing

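Of 58 genes with a log2FC under alternatives (the 10, PELP1 and named list genes), 46 kept direction and call under every alternative that tested them. CNN1 and ACTG2, both among the 46, were not tested when 10 counts were required in every library. With RLE size factors ELK1 changed sign to 0.00059, and with library totals ELK1 to 0.048 and MYL6 to 0.026. Leaving out single libraries gave -0.048 to 0.043 for MKL2, -0.0270 to 0.022 for ELK1, -0.0075 to 0.032 for ELK3 and -0.0046 to 0.0897 for MYL6B, none of them called. The cause was not tested. With library totals the lower calls went to 0 of the 10 genes, 1 paralog, 2 other MRTF-SRF targets and 2 stress fibre genes, and the median of all genes tested shifted to 0.051. Smooth muscle defining genes with a rise numbered 2, with 1 under DESeq2, 0 with at least 10 counts in every library, which leaves ACTG2 untested, and 3 with no filter or with a replicate block. Without 1 library, lower calls ranged from 1 to 2 for paralogs, 2 to 4 for other MRTF-SRF targets, 1 to 3 for TCF-SRF immediate-early targets and 2 to 4 for stress fibre proteins, and higher calls from 1 to 2 for smooth muscle defining genes. Over all genes, 2290 were higher and 2670 lower with DESeq2, 2459 to 2837 and 2723 to 3066 without 1 library, and 3817 and 2418 with library totals. A replicate block gave 3140 higher and 3335 lower genes, and 2 of 6 libraries correlated best with their own number. The level order of the 10 genes changed with the longest transcript (TPM1 in place 4) and in CPM (VCL in place 2). Counts per gene limit ACTA2, where 57 and 56 reads stand behind the pooled ratio.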
